A study of Mus musculus with 10 samples.

Results

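The 10 genes described here, Hist3h2a, Hist3h2ba, Irgm2, Grap, Cnot8, Trim11, Gemin5, Slc5a10, Gm12258 and Guk1, lie on mouse chromosome 11 on either side of Nlrp3, the gene deleted in the Nlrp3KO mice, and are 10 of the 31053 genes in the count matrix. They were selected on the difference between Nlrp3KO and Nlrp3 WT microglia in these libraries, so their values in that comparison are given as a description, with no p-value. CD45+ immune cells were sorted from whole mouse brains and profiled by 3′ single-cell RNA sequencing (10x Genomics), with 1 library for each genotype and age and 10 libraries in all. The genotypes were WT and Nlrp3KO at 3, 6 and 9 months of age, and APP/PS1 and Nlrp3KO APP/PS1 at 3 and 9 months of age. The mice were littermates backcrossed to C57BL/6, and each library pooled 3 mice (2 males and 1 female). The Nlrp3 deletion is constitutive and present in the whole body, and APP/PS1 mice overexpress mutant APP and mutant PS1 in neurons of the central nervous system. Matching each Nlrp3KO library with the Nlrp3 WT library of equal age and amyloid background made 5 pairs, 3 non-diseased and 2 APP/PS1. Each of the 3 batches held a single age, so the effects of age and of batch cannot be told apart, but both members of a pair belonged to the same batch.

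NLRP3 is a cytosolic sensor of innate immune cells that assembles an inflammasome with the adaptor ASC and caspase-1. A gene deleted by homologous recombination in embryonic stem cells passes to the next generation together with the DNA around it, because recombination rarely separates closely linked loci, and after backcrossing a stretch of chromosome from the donor strain can remain beside the targeted gene. The strain origin of the region in these mice was not measured. The genes near Nlrp3 have unrelated roles. Hist3h2a and Hist3h2ba encode core histones H2A and H2B, Irgm2 an interferon-inducible GTPase, Grap a Grb2-related adaptor protein, Cnot8 a deadenylase subunit of the CCR4-NOT complex, Gemin5 the RNA-binding subunit of the SMN complex, Trim11 an E3 ubiquitin ligase, Guk1 guanylate kinase and Slc5a10 a sugar transporter, while Gm12258 is a predicted protein-coding gene.

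In the GENCODE M21 annotation of GRCm38, 8 of the genes lie before Nlrp3 (chr11:59541568-59566956) and 2 after it. The group spans 3.62 Mb. Cnot8 (chr11:58104153-58118594), Gemin5 (chr11:58120002-58168539) and Irgm2 (chr11:58199618-58222782) are 1.42, 1.37 and 1.32 Mb away from Nlrp3. Gm12258 (chr11:58847158-58861956), Hist3h2ba (chr11:58948920-58949533), Hist3h2a (chr11:58954685-58956830), Trim11 (chr11:58978093-58991458) and Guk1 (chr11:59183875-59192212) follow, with Guk1 349 kb from Nlrp3. Grap (chr11:61653265-61672784) and Slc5a10 (chr11:61672781-61720826) are 2.09 and 2.11 Mb beyond it. Some counts are uncertain because annotated genes overlap. Hist3h2a overlaps Trim17 and Irgm2 overlaps Igtp, each on the same strand, Grap and Slc5a10 share their last 4 bases on opposite strands, Slc5a10 also overlaps Fam83g, and Gemin5 overlaps the antisense gene Gm12246. Among the last 500 bases of their transcripts, Hist3h2ba shared 287 aligned bases with the pseudogene Hist3h2bb-ps and Cnot8 shared 179 with the pseudogene Gm18860, both at an identity of at least 95%.

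The start regions of 3 genes are shown because the 2 histone genes moved together, with starts 5.77 kb apart on the same strand, and because Irgm2 carries short motifs of the interferon response. Of the 10 genes, 8 were found in the RefSeq promoter table of GRCm38.p6 (Hist3h2a under its newer symbol H2aw and Hist3h2ba under H2bu2), and Grap and Trim11 were missing. Each sequence is the 250 bases before the start annotated by RefSeq on the plus strand, at chr11:58954435-58954684 for Hist3h2a, chr11:58948661-58948910 for Hist3h2ba and chr11:58214727-58214976 for Irgm2. In the histone genes, capitals mark CCAAT and TATAA, and in Irgm2 they mark TTCNNNGAA (the GAS core) and an ISRE-like repeat of GAAA, any 2 bases and GAAA, searched on both strands.
Hist3h2a: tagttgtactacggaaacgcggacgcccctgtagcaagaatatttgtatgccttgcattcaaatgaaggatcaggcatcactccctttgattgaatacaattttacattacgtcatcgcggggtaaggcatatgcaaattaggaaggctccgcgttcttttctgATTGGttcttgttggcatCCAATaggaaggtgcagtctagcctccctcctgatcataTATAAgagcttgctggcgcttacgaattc
Hist3h2ba: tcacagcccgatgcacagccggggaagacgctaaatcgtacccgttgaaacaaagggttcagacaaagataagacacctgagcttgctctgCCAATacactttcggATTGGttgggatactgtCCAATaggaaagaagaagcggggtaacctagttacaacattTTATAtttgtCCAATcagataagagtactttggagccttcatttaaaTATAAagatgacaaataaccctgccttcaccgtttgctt
Irgm2: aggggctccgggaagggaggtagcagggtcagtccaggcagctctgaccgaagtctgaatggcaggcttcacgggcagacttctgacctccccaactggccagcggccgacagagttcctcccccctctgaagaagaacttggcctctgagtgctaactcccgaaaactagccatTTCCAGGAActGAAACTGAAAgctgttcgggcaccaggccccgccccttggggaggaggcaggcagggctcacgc
Hist3h2a held 2 matches of CCAAT and 1 of TATAA, and Hist3h2ba held 4 and 2. CCAAT was found in 33.8% and TATAA in 22.8% of the 32851 windows of this length in the table. Irgm2 held 1 match each of TTCNNNGAA, which 7.02% of all windows held, and of the ISRE-like repeat, which 2.98% held, and the matches lay without overlap within 75 bases of the RefSeq start. That start follows the printed window directly and lies inside Irgm2 as GENCODE places it, not at the first base given above. These matches are descriptions of the reference sequence, and no binding was measured. Irgm2 was shown for its motifs, so nothing is read from the shares beside them. The other matched genes held 0 matches of either interferon motif. Among those not shown, Gm12258 held 3 matches of CCAAT and 1 window of Guk1 held 1.

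Counts of unique molecular identifiers (UMIs) were summed over the cells of a library and given as CPM, in which the counts of every library are scaled to the same total. A sum does not tell fewer expressing cells from less RNA per cell. The 40547 microglia held 9357431 to 35107144 UMIs per library, and the 4925 other CD45+ cells 1526924 to 6634093. Of 45225 distinct cell barcodes, 246 occurred in more than 1 library. Nlrp3 was counted at 34.4 to 53.7 CPM in the Nlrp3 WT libraries and at 0 UMIs in all 5 Nlrp3KO libraries, which allows up to 3 UMIs in each. The summed level of 6 microglial markers (P2ry12, Tmem119, Sall1, Fcrls, Sparc and Siglech) was 10829 to 12599 CPM in Nlrp3KO and 11545 to 13000.1 CPM in Nlrp3 WT microglia, and that of the 5 T cell markers at most 3.35 CPM.

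Hist3h2a was the member with the highest UMI count among those lower in Nlrp3KO microglia. It was counted at 98.2, 91.7 and 71.9 CPM in WT microglia at 3, 6 and 9 months and at 87.6 and 59.3 CPM in APP/PS1 microglia at 3 and 9 months. The matched libraries had 31.6, 35.8 and 29.0 CPM in Nlrp3KO and 32.7 and 26.9 CPM in Nlrp3KO APP/PS1 microglia. All 5 Nlrp3KO libraries lay below every Nlrp3 WT library, and the fitted log2 fold change was -1.38 (SE 0.07, 5 pairs), with 38.2% of the Nlrp3 WT mean remaining. In Hist3h2ba, the neighbouring H2B gene, levels were low in both groups. Microglia held 2.27 to 3.56 CPM in Nlrp3 WT and 0 to 0.72 CPM in Nlrp3KO libraries, from 292 and 49 UMIs. The groups did not overlap, and the log2 fold change was -2.83 (SE 0.35).

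Irgm2 stood at 35.3, 29.3 and 24.0 CPM in WT microglia at 3, 6 and 9 months and at 36.5 and 27.1 CPM in APP/PS1 microglia. The Nlrp3KO libraries of the same ages had 17.5, 16.6 and 14.02 CPM, and the Nlrp3KO APP/PS1 libraries 19.5 and 14.4 CPM. The groups did not overlap, and the log2 ratio lay between -1.01 and -0.77 in the 5 pairs, with a log2 fold change of -0.88 (SE 0.05). The related genes of this family are given beside it, and no test set them against Irgm2. Of 9 tested immunity-related GTPases and guanylate binding proteins, 0 were called by edgeR, their median log2 fold change was 0.10, and Igtp and Irgm1, which also lie on chromosome 11, were at -0.06 (SE 0.04) and -0.10 (SE 0.09). The 8 interferon-stimulated genes, of which 0 were called, had a median log2 fold change of -0.01, against 0.01 over all 12383 genes tested.

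Grap was the member with the most UMIs and was higher in Nlrp3KO microglia. It had 81.9, 89.0 and 109.7 CPM in WT and 78.6 and 93.4 CPM in APP/PS1 microglia. The matched libraries had 140.5, 148.7 and 155.6 CPM in Nlrp3KO and 136.3 and 126.3 CPM in Nlrp3KO APP/PS1 microglia. Every Nlrp3KO library lay above every Nlrp3 WT library, and the log2 fold change was 0.66 (SE 0.06). Slc5a10, whose end meets that of Grap on the other strand, differed the other way, with 4.45 ± 1.30 CPM (SD, n = 5) in Nlrp3 WT and 2.14 ± 0.49 CPM (SD, n = 5) in Nlrp3KO microglia and a log2 fold change of -1.06 (SE 0.15), and its groups overlapped. Of the Grap relatives and partners Grb2, Grap2, Sos1, Sos2 and Shc1, 4 were tested and 0 called by edgeR, with log2 fold changes between -0.08 and 0.31.

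The remaining members were Cnot8, Gemin5, Gm12258, Trim11 and Guk1. Cnot8 had 94.7 ± 10.1 CPM (SD, n = 5) in Nlrp3 WT and 118 ± 12.6 CPM (SD, n = 5) in Nlrp3KO microglia, with a log2 ratio between 0.27 and 0.39 in each pair although the groups overlapped. Gemin5 had 11.6 ± 1.47 and 15.0 ± 0.56 CPM (SD, n = 5 each) and Gm12258 7.36 ± 1.34 and 12.5 ± 2.15 CPM (SD, n = 5 each), both without overlap, and their log2 fold changes were 0.38 (SE 0.07) and 0.80 (SE 0.14). Trim11 (log2 fold change -0.32, SE 0.06) and Guk1 (0.22, SE 0.06) had overlapping groups. Among the 10 tested CCR4-NOT subunits other than Cnot8, the 7 tested SMN complex members other than Gemin5 and 14 tested H2A and H2B histone genes outside the group, 0 were called by edgeR, and the medians of their log2 fold changes were -0.01, -0.01 and -0.04. The 5 nucleotide kinases had a median log2 fold change of 0.07 and the 2 transporters of the Slc5a family -0.08, again with 0 called, and neither Trim17 nor Trim58 had enough counts to be tested.

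All 10 members passed the filter on low counts in microglia. The edgeR fit across all genes, with the pair as a block, called 0.0404% of them, among which were 3 members (Hist3h2a, Irgm2 and Grap), a count that is no test because the same values chose the members. The other called genes were Nlrp3 and Pttg1, which lies 16.1 Mb before Nlrp3 (log2 fold change -2.31). Hist3h2a, Hist3h2ba, Irgm2, Trim11 and Slc5a10 were lower in 5 of 5 pairs, as were 3.85% of all tested genes, and Grap, Cnot8, Gemin5, Gm12258 and Guk1 were higher in 5 of 5 pairs, as were 3.26%. The 5 libraries of each genotype did not overlap in 6 members and in 0.396% of all tested genes. The members were chosen by these same differences, so nothing is read from these shares. The median absolute log2 fold change was 0.73 over the members and 0.06 over all tested genes. Among the members, Guk1 (log2 fold change 0.22) had the smallest difference. The genes nearest to Nlrp3 that are no members, Zkscan17 (14.8 kb before) and Mprip (94.3 kb after), had log2 fold changes of -0.04 (SE 0.05) and 0.09 (SE 0.06).

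**Figure D1:**
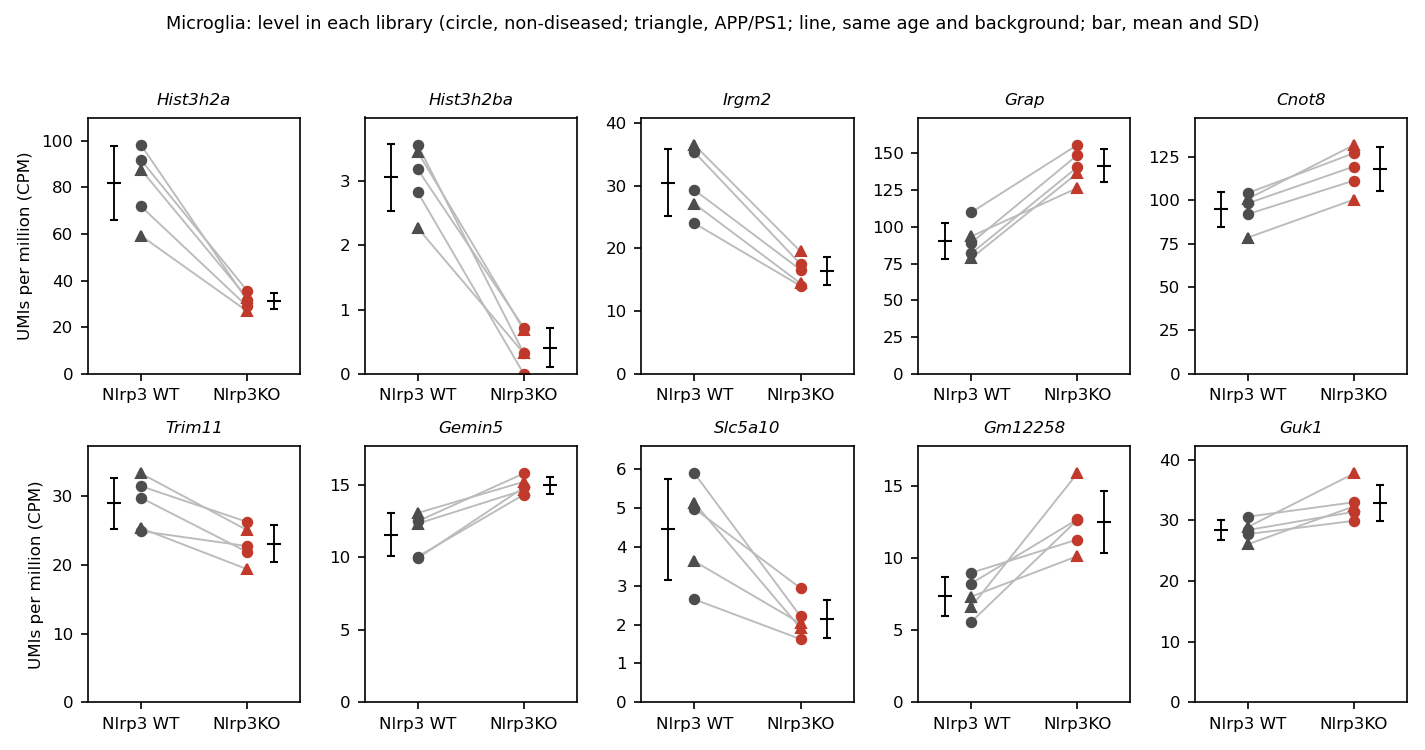
Level of each of the 10 genes in microglia (y axis, CPM from 0, own scale per gene) in the Nlrp3 WT and Nlrp3KO libraries (x axis), with circles for non-diseased and triangles for APP/PS1 libraries, grey lines joining the libraries of a pair, and bars for the mean and SD of 5 libraries. All lines fall for Hist3h2a, Hist3h2ba, Irgm2, Trim11 and Slc5a10 and all rise for Grap, Cnot8, Gemin5, Gm12258 and Guk1.

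The members sit among other genes of the region, which the choice of members left out. Of 97 tested non-members within 5 Mb of Nlrp3, 28 (28.9%) moved in the same direction in 5 of 5 pairs, against 764 of 11217 tested genes on the other chromosomes (6.81%). The share was 30.8% within 1 Mb, 27.6% from 1 to 2 Mb and 28.6% from 2 to 5 Mb of Nlrp3, and it was 5.56% from 5 to 10 Mb, 6.5% from 10 to 20 Mb and 7.75% farther away on chromosome 11. The median absolute log2 fold change was 0.11 within 5 Mb and 0.06 on the other chromosomes. These shares are a description of the same comparison, and neighbouring genes are not independent of each other. The genotypes did not overlap in 5 of the 97 non-members within 5 Mb (5.15%), against 0.276% of tested genes on the other chromosomes. On chromosome 11 the share was 0% from 5 to 10 Mb, 1.5% from 10 to 20 Mb (3 of 200 genes) and 0.475% farther away. Named after their values were seen, the 5 within 5 Mb were Lyrm7, Fam114a2, Gm12248, Shmt1 and Zfp286. Gm12248, the tested gene next to Cnot8 on the far side from Nlrp3, was at 0.17 ± 0.15 CPM (SD, n = 5) in Nlrp3 WT and 1.32 ± 0.20 CPM (SD, n = 5) in Nlrp3KO microglia, from 11 and 136 UMIs. Shmt1, the cytosolic serine hydroxymethyltransferase, was higher in Nlrp3KO (log2 fold change 0.82, SE 0.20), as was Zfp286 (0.38, SE 0.10). Lyrm7 (-1.604, SE 0.31) and Fam114a2 (-0.16, SE 0.04) were lower. Lyrm7 was counted at a mean of only 0.29 CPM in Nlrp3KO and 0.91 CPM in Nlrp3 WT microglia, from 31 and 84 UMIs. Next to the group on the other side, Prpsap2 had a log2 fold change of -0.04 (SE 0.05).

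**Figure D2:**
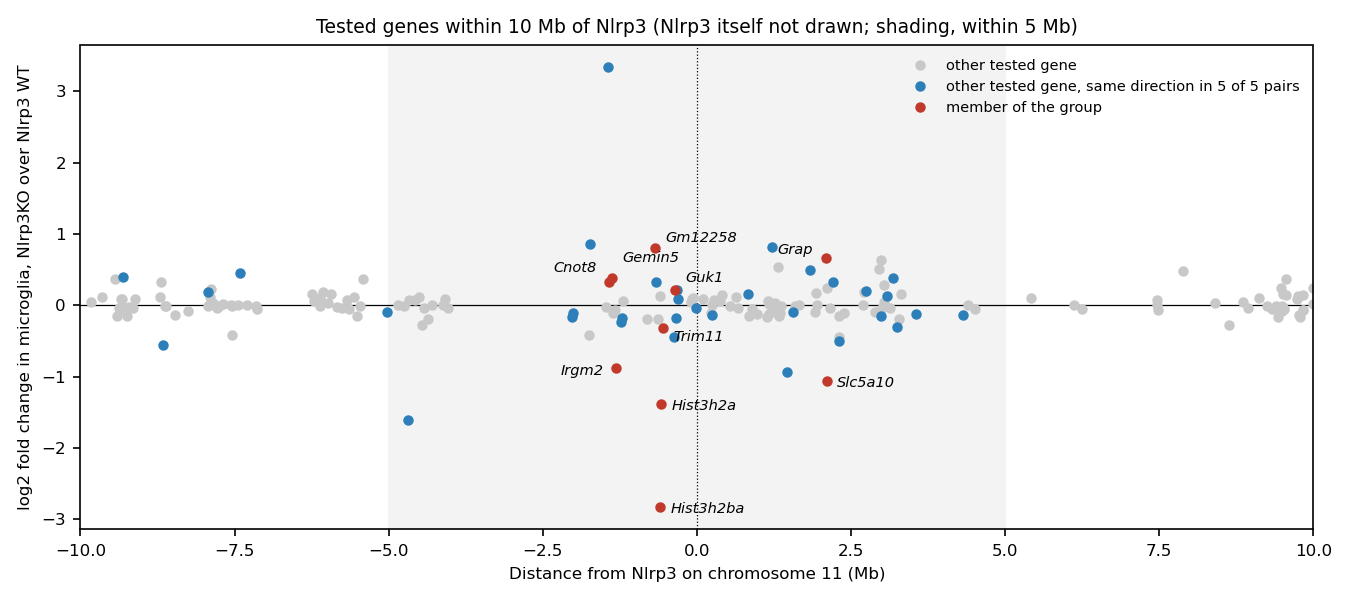
Log2 fold change between Nlrp3KO and Nlrp3 WT microglia (y axis) against the distance from Nlrp3 on chromosome 11 (x axis, Mb) for tested genes within 10 Mb, with members in red, other genes of 1 direction in 5 of 5 pairs in blue, the rest in grey, and shading within 5 Mb. Blue points are 28 of 97 non-members inside the shaded range and 5 of 90 outside it, and the genes nearest to Nlrp3 lie close to 0.

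The differences were also followed through the 6 microglial states of the authors' annotation, namely homeostatic (HM), transitioning (TM), interferon-response (IRM), immediate early gene (IEG), disease-associated (DAM) and proliferating microglia (PM). These cells are part of the microglia that chose the members, so the values are a description. A log2 ratio was taken only where a pair held at least 20 UMIs of the gene. The mean log2 ratio of Hist3h2a was -1.34 in HM, -1.26 in TM, -1.30 in IRM, -1.08 in IEG and -1.48 in PM over 5 pairs, and -1.14 in DAM over 4 pairs. The fifth pair in DAM, non-diseased at 3 months with 10 UMIs in Nlrp3KO and 7 in WT, went the other way, at 49.0 against 43.5 CPM. Its genotypes did not overlap in any state but DAM, the state with as few as 24 cells in a library. Shares over all genes were not counted within states. Grap was higher in 5 of 5 pairs in each of the 6 states, with mean log2 ratios from 0.28 in DAM to 0.85 in IEG. In DAM its groups overlapped, and the log2 ratio lay between 0.02 and 0.96 (SD 0.39, 5 pairs). The highest came from the APP/PS1 pair at 3 months, with 39 UMIs in Nlrp3KO and 7 in Nlrp3 WT. Cnot8 was higher in 5 of 5 pairs in HM, TM, IRM, IEG and PM and in 4 of 5 in DAM. Other members did not keep their direction in all pairs of every state. Gemin5 was lower in 3 of 5 pairs in each of IEG, DAM and PM, but with at least 20 UMIs it was lower in 2 of 4 pairs in IEG and higher in the 1 such pair of DAM and of PM. Guk1 was lower in 3 of 5 pairs in DAM (1 of the 3 with at least 20 UMIs), and Trim11 was higher in 2 of 5 in IEG. In DAM, Irgm2 was lower in 4 of 5 pairs, but its mean log2 ratio was 0.40 over the 2 pairs with enough UMIs.

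Irgm2 is shown in more detail in HM and IRM. In Nlrp3 WT libraries it stood at 30.6 ± 5.26 CPM (SD, n = 5) in HM and 61.5 ± 14.8 CPM (SD, n = 5) in IRM, the state defined by interferon-response genes. The single Nlrp3 WT libraries of IRM had 77.5, 72.0, 42.2, 65.6 and 50.3 CPM, and the matched Nlrp3KO libraries 60.9, 41.8, 35.8, 49.2 and 36.6 CPM. Irgm2 was lower in 5 of 5 pairs in both states, but the mean log2 ratio was -0.97 (SD 0.17, 5 pairs) in HM and -0.43 (SD 0.20, 5 pairs) in IRM, and the genotypes overlapped in IRM but not in HM. In PM the mean was -0.37 (SD 0.73) over 3 pairs, with Irgm2 lower in 4 of all 5, so the value in IRM was not the one nearest to 0. Differences between states were not tested. The relatives Igtp and Irgm1 were also counted higher in IRM than in HM of Nlrp3 WT libraries, at 118 and 133 CPM against 36.5 and 34.2 CPM over the pooled cells.

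**Figure D3:**
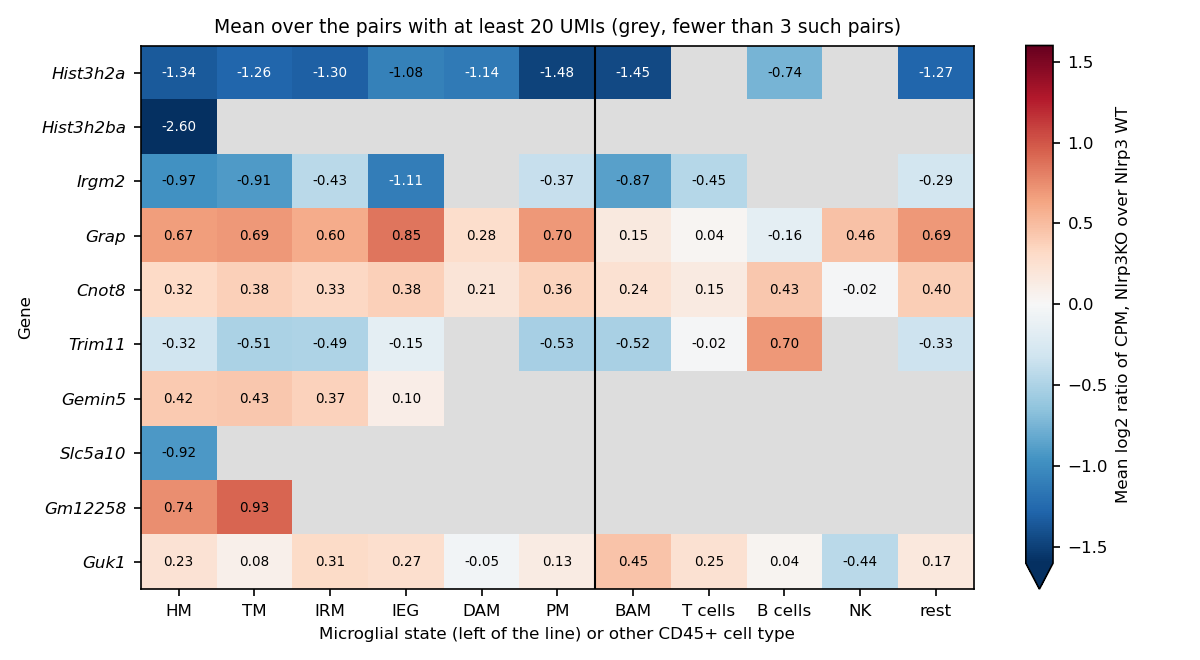
Mean log2 ratio of CPM between Nlrp3KO and Nlrp3 WT libraries (colour and printed value) for each of the 10 genes (rows) in 6 microglial states and, right of the line, 5 groups of other CD45+ cells (columns), with grey where fewer than 3 pairs held at least 20 UMIs. Hist3h2a is negative in each filled column and Grap is positive in each microglial state, at 0.15 in BAM and 0.04 in T cells.

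Whether the differences were also present outside microglia was asked in the 4925 other CD45+ cells, which the choice of members did not use but which came from the same mice and libraries. T cells made up 7.26 to 59.4% and BAM 8.99 to 50.5% of these cells per library, so sums over them mix cell types in different shares. Of the 10 members, 9 had enough counts to be tested and Slc5a10 did not. By edgeR, 0 of the 9 were called, as were 0.0% of 11017 genes tested, of which 381 had an unadjusted p under 0.05. DESeq2 called 3 genes. Hist3h2a, Hist3h2ba and Irgm2 were lower in 5 of 5 pairs, as were 1.41% of all tested genes, and Cnot8 and Gm12258 were higher in 5 of 5 pairs, as were 5.66%. Hist3h2a had 30.5 to 69.7 CPM in Nlrp3 WT and 14.9 to 26.5 CPM in Nlrp3KO libraries, which did not overlap. Its log2 fold change was -1.21 (SE 0.17, edgeR adjusted p = 0.311), and it was called by DESeq2 and in BAM alone. Hist3h2ba and Irgm2 had log2 fold changes of -1.35 (SE 0.30) and -0.63 (SE 0.14), both with an edgeR adjusted p of 0.9999. At an unadjusted p under 0.05 stood 4 of the 9, the last being Gm12258 (log2 fold change 0.72, SE 0.24), whose groups did not overlap. The share of all tested genes without overlap was not counted in these cells, so nothing is read from the lack of overlap. Among non-members within 5 Mb of Nlrp3, 16.7% of 84 moved in the same direction in 5 of 5 pairs, against 6.88% of 9991 genes on other chromosomes.

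BAM, the border associated macrophages, are macrophages of the meninges, perivascular spaces and choroid plexus. They showed the Hist3h2a difference by themselves. The 5 BAM markers (Mrc1, Pf4, Cd163, Lyve1 and Ms4a7) summed to 3327 to 4849 CPM in Nlrp3 WT and 2829 to 3591 CPM in Nlrp3KO BAM, and the 6 microglial markers to 1272 to 2192 and 997 to 1752 CPM, against at least 10829 CPM in microglia. Of these 6, Fcrls had the highest level in BAM, at 882 CPM over the pooled cells against 2171 CPM in microglia. P2ry12 was at 211 against 3183 CPM. Hist3h2a had 96.8, 82.2 and 73.1 CPM in WT BAM at 3, 6 and 9 months and 72.5 and 80.1 CPM in APP/PS1 BAM. The matched libraries had 34.1, 30.0 and 20.8 CPM in Nlrp3KO and 20.7 and 35.9 CPM in Nlrp3KO APP/PS1 BAM. The groups did not overlap, as in 0.981% of tested genes, and the log2 fold change was -1.53 (SE 0.16, edgeR adjusted p = 0.000126, lower in 5 of 5 pairs). Of 7644 genes tested, 0.0654% were called, and Hist3h2a was the single member among the 6 tested. The other called genes were Nlrp3, Gm8797, Pttg1 and Tslp. At an unadjusted p under 0.05 stood 4 of the 6 members and 424 of the 7644 genes. Whether RNA of microglia has a part in the BAM values was not tested.

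The other tested members in BAM did not pass. Irgm2 had 20.5 to 53.6 CPM in Nlrp3 WT and 10.8 to 29.7 CPM in Nlrp3KO BAM, with a log2 fold change of -0.89 (SE 0.23, edgeR adjusted p = 0.542) and a lower value in 5 of 5 pairs. Trim11 was at -0.65 (SE 0.24), Guk1 at 0.45 (SE 0.17), Cnot8 at 0.23 (SE 0.15) and Grap at 0.15 (SE 0.15) on the log2 scale. Among the 6 tested, Hist3h2a, Irgm2 and Trim11 were lower in 5 of 5 pairs, as were 3.53% of all tested genes, and Cnot8 was higher in 5 of 5, as were 3.89%. Hist3h2ba, too low for the test, had 4 to 10 UMIs in each Nlrp3 WT library and 1 UMI in each Nlrp3KO library of BAM. Gemin5 and Gm12258 were also under the filter, and Slc5a10 had 0 UMIs in all BAM libraries. The lists of related genes had 0 calls in BAM by edgeR, with a median log2 fold change of -0.32 over 8 immunity-related GTPases and guanylate binding proteins, -0.10 over 8 interferon-stimulated genes and -0.14 over 10 histone genes. Among non-members within 5 Mb of Nlrp3, 11.9% of 59 moved in 1 direction in 5 of 5 pairs of BAM, against 7.18% of 6921 genes on other chromosomes, and in T cells 8.33% of 48 did so against 6.05% of 5905.

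T cells, with 27 to 504 cells per library, gave differences with wide spread. Their 5 markers (Cd3d, Cd3e, Cd3g, Trac and Trbc2) summed to 4458 to 5598 CPM in Nlrp3 WT and 4728 to 5451 CPM in Nlrp3KO libraries. The microglial markers, which T cells lack, summed to 77.7 to 1611 CPM in Nlrp3 WT and 23.1 to 602 CPM in Nlrp3KO T cells, and the part of this RNA in the values of the members was not tested. Hist3h2a had 11.9, 32.5, 20.05, 10.7 and 24.7 CPM in Nlrp3 WT and 4.74, 14.9, 11.1, 5.83 and 19.0 CPM in the matched Nlrp3KO libraries. It was lower in each pair, but only 2 pairs held at least 20 UMIs. The groups overlapped, and the log2 fold change was -0.80 (SE 0.25, edgeR adjusted p = 0.9998). Hist3h2ba, which was counted at a higher level in T cells than in microglia, had 15.8 to 29.7 CPM in Nlrp3 WT and 11.1 to 19.0 CPM in Nlrp3KO T cells and a log2 fold change of -0.51 (SE 0.27). Irgm2 was higher in Nlrp3KO at 9 months in the non-diseased pair (40.1 against 15.0 CPM) and lower in the other 4 pairs. Grap had 155 ± 31.8 CPM (SD, n = 5) in Nlrp3 WT and 160 ± 34.9 CPM (SD, n = 5) in Nlrp3KO T cells, with a log2 fold change of -0.02 (95% interval -0.25 to 0.22).

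Of the 10 members, 7 were tested in T cells and 0 called by edgeR, as were 0.0% of 6507 genes tested. At an unadjusted edgeR p under 0.05 stood 1 of the 7 members and 198 of the 6507 genes, and DESeq2 called 1 gene. Hist3h2a and Hist3h2ba were lower in 5 of 5 pairs, as were 1.81% of all tested genes. For each gene, only 2 of these pairs held at least 20 UMIs. In 1 of them, APP/PS1 at 9 months, the log2 ratio of Hist3h2ba was -0.06. None of the 7 was higher in 5 of 5 pairs, as were 4.35% of all tested genes. The Nlrp3KO difference in BAM was then set against that in T cells in a single fit. By edgeR, 0 of 8 members tested were called, as were 0.0% of 8482 genes. An unadjusted edgeR p under 0.05 was found for 1 of the 8 members and for 408 of all tested genes, and 0 genes were called by DESeq2. Of these 8, Hist3h2ba was under the filter in BAM by themselves and Gemin5 in both cell types, so no value of the difference is given for them. The counts over the 8 members include both genes, so nothing is read from these counts. For Hist3h2a the difference between the 2 cell types was -0.58 (95% interval -1.17 to 0.01) and for Grap 0.17 (95% interval -0.22 to 0.57).

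**Figure D4:**
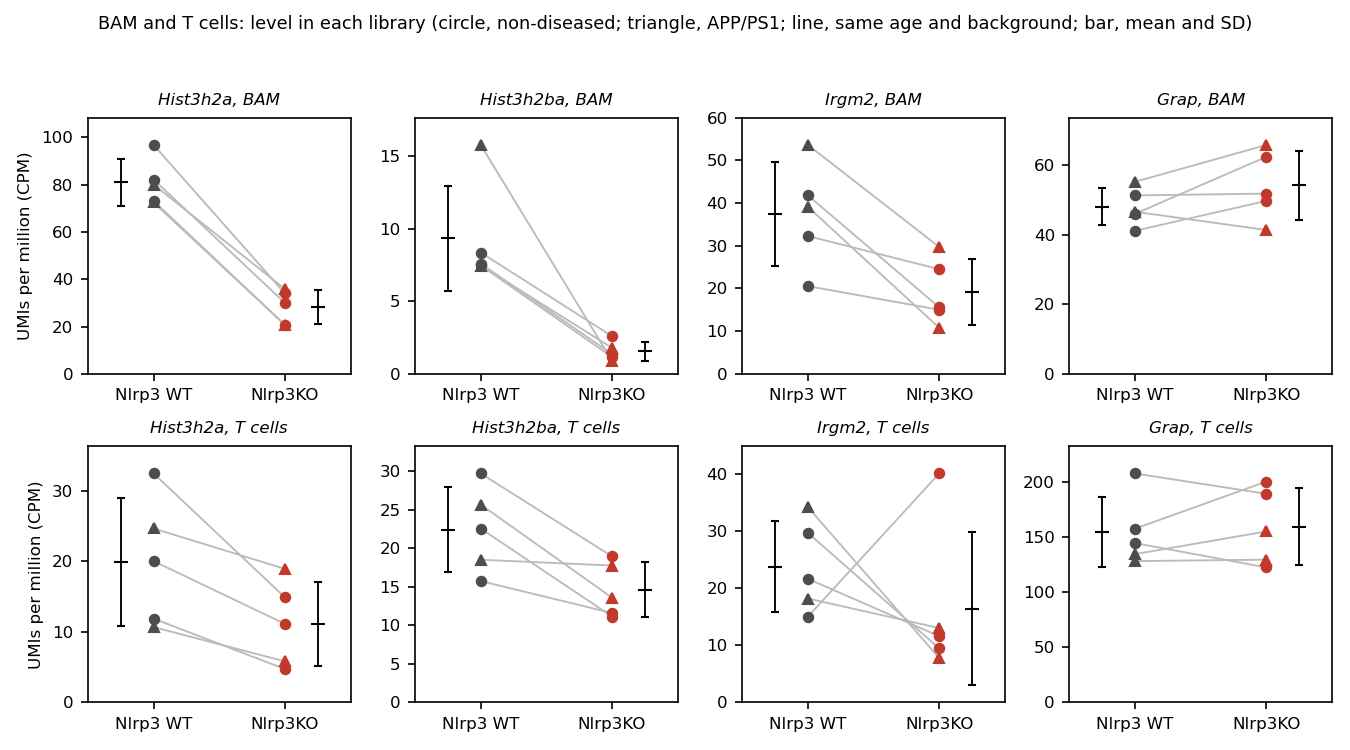
Level of Hist3h2a, Hist3h2ba, Irgm2 and Grap (y axis, CPM from 0, own scale per panel) in BAM (top) and T cells (bottom) of the Nlrp3 WT and Nlrp3KO libraries (x axis), drawn with the same symbols as for microglia. The Nlrp3KO libraries of BAM lie between 20.7 and 35.9 CPM for Hist3h2a, below all Nlrp3 WT libraries, while those of T cells overlap with Nlrp3 WT in all 4 genes.

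B cells, NK cells and the rest of the CD45+ cells are described by their pairs, without a test. Shares over all genes were not counted in these sets. Nothing is therefore read from the counts of pairs or from groups that did not overlap. Over the pooled cells, the microglial marker P2ry12 was at 239 CPM in B cells and 259 CPM in NK cells, against 114 CPM in T cells. The part of microglial RNA in the values of the members was not tested here either. Hist3h2a was lower in 4 of 5 pairs in B cells and in NK cells and in 5 of 5 pairs in the rest, where its groups did not overlap (39.6 ± 12.8 CPM in Nlrp3 WT and 15.3 ± 4.96 CPM in Nlrp3KO, SD, n = 5 each). Hist3h2ba had 35 UMIs in B cells of Nlrp3 WT and 3 UMIs in those of Nlrp3KO libraries. Grap had 138 ± 35.5 CPM (SD, n = 5) in Nlrp3 WT and 119 ± 9.87 CPM (SD, n = 5) in Nlrp3KO B cells, with mean log2 ratios of -0.16 in B cells, 0.46 in NK cells over 4 pairs and 0.69 in the rest. Some members had other directions here than in microglia, from few UMIs. In NK cells, Guk1 was lower in 5 of 5 pairs (3 of 3 with at least 20 UMIs), as was Gemin5, for which 0 pairs held 20 UMIs. Irgm2 was higher in 4 of 5 pairs of NK cells, but in 1 of the 2 with at least 20 UMIs, where the mean log2 ratio was -0.03. Trim11 was higher in 4 of 5 pairs in NK cells (2 of 2 with at least 20 UMIs) and in B cells (3 of 3).

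The levels in Nlrp3 WT libraries are given by cell type, and the choice of members did not use differences between cell types. Microglial markers were also counted in T, B and NK cells, and the part of RNA from other cells in these levels was not tested. Hist3h2a stood at 81.7 ± 15.9 CPM (SD, n = 5) in microglia and 80.9 ± 9.82 CPM (SD, n = 5) in BAM, which do not differ beyond their spread. The means were lower in B cells (49.7 ± 25.0 CPM), the rest of the cells (39.6 ± 12.8 CPM), NK cells (27.2 ± 7.10 CPM) and T cells (19.96 ± 9.09 CPM). The libraries of these last sets overlapped with each other, so no order among them is read. Hist3h2ba had the opposite order between microglia and T cells, with 3.05 ± 0.52 CPM in microglia, 9.33 ± 3.62 CPM in BAM and 22.4 ± 5.56 CPM in T cells. Grap was at 155 ± 31.8 CPM in T cells and 138 ± 35.5 CPM in B cells, which overlap, then 90.5 ± 12.2 CPM in microglia and 48.0 ± 5.38 CPM in BAM. Slc5a10 was counted at 4.45 ± 1.30 CPM in microglia and at 0 UMIs in BAM, B cells and T cells of Nlrp3 WT libraries.

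Amyloid pathology gave no call among the 10 genes. Between APP/PS1 and non-diseased microglia, over 4 pairs of the same age and Nlrp3 genotype, 0 of 10 members were called by edgeR, and 0.057% of all 12282 tested genes were called. An unadjusted p under 0.05 was found for 1 of the 10 members and for 918 of all tested genes. Log2 fold changes lay between -0.14 (Grap, SE 0.05, adjusted p = 0.606) and 0.17 (Hist3h2ba, SE 0.34), against a median absolute value of 0.07 over all genes. The 95% interval was -0.23 to 0.00 for Hist3h2a and 0.00 to 0.23 for Irgm2. The 8 interferon-stimulated genes had a median log2 fold change of 0.54, and 0 of them were called (lowest edgeR adjusted p = 0.159). Of the 9 immunity-related GTPases and guanylate binding proteins, 0 were called, with a median of 0.07. Neither list was tested against the members. The test of whether the Nlrp3KO difference itself differed between APP/PS1 and non-diseased microglia called 0 of 10 members and 0.0% of 12383 genes by edgeR, with 310 genes at an unadjusted p under 0.05 and 1 called by DESeq2. Guk1 had the lowest unadjusted p among the members (difference in log2 fold change 0.25, SE 0.09, edgeR adjusted p = 1), and the members ranged from -0.23 (Slc5a10, SE 0.33) to 0.73 (Hist3h2ba, SE 0.79). Hist3h2a, Irgm2 and Grap were at 0.17 (SE 0.15), 0.00 (SE 0.12) and -0.03 (SE 0.13).

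Across the 10 libraries, the 3 genes whose microglial level was most like that of Hist3h2a, by the Pearson correlation of log2(CPM + 1) among 8228 non-member genes with a mean of at least 10 CPM, were the deleted gene Nlrp3 itself (r = 0.953), Mmaa (r = 0.927) and Pttg1 (r = 0.880). Pttg1, the securin gene, lies on chromosome 11 at 16.1 Mb before Nlrp3 and was counted at 45.2 CPM in Nlrp3 WT and 9.45 CPM in Nlrp3KO libraries. For Grap they were Gm8797 (r = 0.929), 1810058I24Rik (r = 0.915) and Emc2 (r = 0.899), none of them on chromosome 11. The 10 points share the split by Nlrp3 genotype, for which Hist3h2a and Grap were chosen. Genes split by genotype therefore rank high by that choice, and these values only describe the libraries.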

How the data were processed

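CD45+ brain cells of 10 libraries were analysed. According to the study's methods, the authors mapped reads to mouse mm10 with Cell Ranger (STAR), removed outlier cells with Scater and clustered cells with Seurat and harmony; whether counting used strand is not given in the sources used here. The deposited values are UMI counts per gene and cell, not normalized. The deposited annotation gives cell types, microglial states, the percent of mitochondrial UMIs and a doublet score, a fraction from 0 to 1, per cell. The medians of the mitochondrial percent per library of the microglia lay between 2.35 and 3.67. Of the sample names in the matrix, 2 (6897 cells) matched no sample description and were not used, which left 45472 cells. Doublets were kept in the main analysis, and cells with a score over 0.5 were left out as an alternative.

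Cells of a library are not replicates, so counts were summed per library and cell set. After removal of low genes (filterByExpr) and TMM scaling, edgeR 4.0.16 was used for all tests (R 4.3.3; quasi-likelihood F test, prior count 2, pair of libraries as block, Benjamini-Hochberg adjusted p under 0.05). DESeq2 1.42.0 was an alternative. Intervals of a log2 fold change are 95% normal intervals from its SE. This form takes no account of the small number of pairs, so the intervals may be too narrow. Libraries pool different mice but are 1 per genotype and age, so p-values measure how a difference varies between pairs. The pairs also differ in age and batch or in genotype, and no spread between like pools could be measured. The fits were tested on simulated counts, in which 200 genes per comparison were given a log2 fold change of 2 up or down, and recovered 99.5% of them for Nlrp3KO in microglia (12383 genes), 97% in other CD45+ cells (11017 genes), 96% in BAM (7644 genes) and 92.5% in T cells (6507 genes). Of the calls made there, 6.13%, 4.43%, 5.42% and 5.61% were false, in the same order. Smaller differences, which most members had, were not simulated, so these shares do not tell how many of that size would be missed. The 200 changed genes also exceed the 5 genes called in microglia. There, Hist3h2ba (log2 fold change -2.83) and Gm12248 (3.34), both at low counts, were not called. These shares therefore do not tell how often larger differences would be missed in these data either. Positions are those of GENCODE M21 (GRCm38), and promoter sequences are from RefSeq. The members, gene lists and tests were chosen with earlier results of these data known. Named genes were the members, Nlrp3, the nearest tested genes, called genes, family lists and the 3 most correlated genes of Hist3h2a and Grap. T cells and BAM as tests of their own, and their difference, were added after the data were seen. 1 marker of microglia is not reported here.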

Additional observations from a re-analysis of the deposited data

How the results depend on the processing

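Among the alternatives for the Nlrp3KO difference in microglia, log2 fold changes ranged from -1.44 to -1.29 for Hist3h2a, -0.99 to -0.85 for Irgm2 and 0.62 to 0.70 for Grap. The members were chosen for a difference in these same pairs and have 1 direction in 5 of 5, so leaving out pairs is no check of direction. The numbers of genes called over the whole table moved more. In microglia, 5 genes were called with all pairs, 12 by DESeq2, 2 in the non-diseased pairs alone, 20 in the APP/PS1 pairs alone and 3 to 16 when a pair was left out, the most when the non-diseased pair at 9 months was dropped. In the other CD45+ cells, 0 were called in the main analysis, 3 by DESeq2, 3 with no filter, 2 with no pair block and 5 in BAM only. For APP/PS1 against non-diseased microglia, 7 were called, 52 by DESeq2, 0 in HM cells only and 0 to 17 when a pair was left out (0 without either Nlrp3KO pair, 17 without the Nlrp3 WT pair at 9 months). The test between amyloid backgrounds called 0, and 1 by DESeq2. In T cells, 0 were called, 1 by DESeq2, 11 with no filter and 0 to 8 when a pair was left out, the most when the non-diseased pair at 6 months was dropped. In BAM, 5 were called, 63 with no filter and 3 to 8 when a pair was left out, and Hist3h2a was called in each. The difference between BAM and T cells called 0, 59 with no filter and 0 to 9 when a pair was left out, again the most when the same pair was dropped. The cause of these changes was not tested. Irgm2 in BAM was called with no filter (log2 fold change -0.87). In the APP/PS1 pairs alone, the log2 fold change in microglia was 0.38 for Cnot8, 0.35 for Guk1 and 0.24 for Gemin5, and in the non-diseased pairs alone 0.28, 0.12 and 0.46. The libraries carry no replicate numbers. Depth limits Hist3h2ba, Slc5a10 and Gm12258 outside microglia, where a library often held fewer than 20 UMIs.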
